A study of Mus musculus with 2 samples.

Results

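The genes described are the 3 fibroblast growth factor (FGF) receptors Fgfr1, Fgfr2 and Fgfr3, the Sprouty genes Spry1, Spry2 and Spry4, the phosphatase gene Dusp6, and the transcription factor genes Etv4 and Etv5. They were taken by symbol and are 9 of the 31053 features counted in both libraries. They were chosen by name with their UMI levels in these 2 libraries already known, so all levels and differences are descriptions, and no test was made. Single cells came from the hypothalamic and thalamic region of CD1 mouse embryos at E15.5 (embryonic day). The stressed library held pooled tissue of 5 embryos, whose single dam had been placed at 4 °C for 30 min daily on 5 days, E11.5 to E15.5. The control library held tissue of 10 pooled embryos, also from 1 dam, without that exposure. Both were wild-type, with no transgene, and both were sorted for cells stained for Cd11b and Cd45, surface proteins of microglia and other myeloid cells, before droplet capture with 10x Genomics 3′ chemistry.

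FGFs bind receptor tyrosine kinases on the cell surface together with heparan sulphate, and the receptors pass the signal through Ras to the kinases known as ERK. ERK activity in turn raises transcription of inhibitors that damp the cascade, among them the Sprouty proteins and the ERK phosphatase Dusp6, and of the ETS-family factors Etv4 and Etv5. In the embryonic brain FGF receptors are known from the dividing progenitors of the ventricular zone, while other receptor kinases, such as Csf1r in microglia, use the same cascade.

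Cells were assigned by marker genes, none of them among the 9 genes. Neural progenitors, led by Fabp7, numbered 68 in the stressed library and 62 in the control library. Neurons numbered 86 and 141, and myeloid cells 1241 and 845, in the stressed and the control library. The labels name the cells microglia, and the gated myeloid cells made up 88.2% of the 1407 stressed cells kept and 79.1% of the 1068 control cells kept. Itgam, which encodes Cd11b, had 0 UMIs in the progenitors of both libraries, against 634 UMIs in stressed and 253 UMIs in control myeloid cells. Ptprc, which encodes Cd45, had 1 UMI in stressed and 0 UMIs in control progenitors, against 791 UMIs in stressed and 344 UMIs in control myeloid cells. A sum of 0 allows up to 7.42 CPM in stressed and 15.1 CPM in control progenitors. Fabp7, itself a gating marker, was found in 64 of 68 stressed and 57 of 62 control progenitors. Their UMIs summed to 404333 in the stressed and 198099 in the control library, with medians of 3759 and 2146 UMIs a cell. In all, 13 barcode sequences occurred in both libraries. Levels are CPM, the UMIs of a gene (unique molecules) divided by the summed UMIs of its class in a library and scaled to 1000000. With 1 library a condition, no difference has a replicate check. All intervals are 95% intervals of counting error alone, which leave out variation between cells, embryos, dams and libraries. In summed cells, fewer expressing cells and less RNA per cell cannot be told apart.

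The 9 genes differed in the class of cell that held them. The 3 receptors and Spry2 were highest in progenitors, lower in neurons and near 0 in myeloid cells, whereas Dusp6 was highest in myeloid cells and Etv5 was found in progenitors and myeloid cells. Genes with at least 50 CPM in one of the 2 sums were compared at a threshold of 1.5 times. In the stressed library 4 of 4 such members were higher in progenitors than in neurons, against 26.9% of all genes tested. In the control library 4 of 4 were, against 32.0%. Fgfr2 and Fgfr3 in the stressed library, and Fgfr1, Fgfr3 and Etv5 in the control library, reached 50 CPM only in progenitors. These counts were thus partly fixed by the filter and by a choice of genes with known levels, and are descriptions only. Progenitors exceeded myeloid cells for 4 of 5 such members in the stressed library (Fgfr1, Fgfr2, Fgfr3 and Spry2), against 44.2% of all genes. In the control library they did so for 4 of 5 (Fgfr1, Fgfr3, Spry2 and Etv5), against 49.3%. Of these, Etv5 was not resolved, with a log2 ratio of 0.71 and an interval that holds 0 (−0.09 to 1.43). Dusp6 was the 1 member lower in progenitors in each library, where 23.5% of all genes in the stressed and 22.7% in the control library were lower. The receptors and Spry2 counted here reached 50 CPM only in progenitors, and Dusp6 only in myeloid cells. These counts too were thus largely fixed by the filter and are descriptions only.

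**Figure D1:**
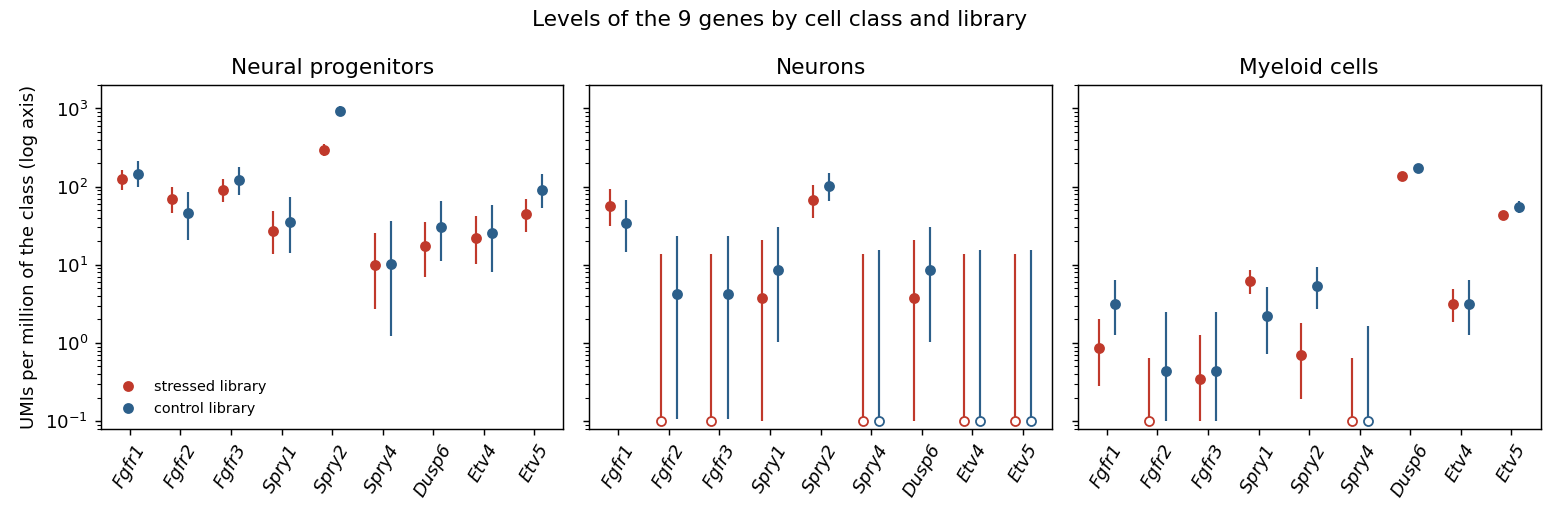
CPM of each gene (log axis) in neural progenitors, neurons and myeloid cells of the stressed (red) and control (blue) library, with 95% Poisson intervals as lines. Open circles at the lower edge mark sums of 0 UMIs; Spry2 is the highest point among progenitors and Dusp6 among myeloid cells.

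Promoter sequence is shown for Spry2, the member with the largest difference between the libraries in progenitors, and for Dusp6 and Etv5, the members abundant in myeloid cells. Etv4 and Etv5 belong to the ETS factors, which bind DNA around a GGAA core, so GGAA on either strand is in capitals. The windows run from 250 bases before to 50 bases after the RefSeq start (GRCm38.p6), written 5′ to 3′ on the strand of the gene. That of Dusp6 lies at chr10:99262981-99263280 on the plus strand, that of Spry2 at chr14:105896770-105897069 on the minus strand, and that of Etv5 at chr16:22439521-22439820 on the minus strand.
Dusp6: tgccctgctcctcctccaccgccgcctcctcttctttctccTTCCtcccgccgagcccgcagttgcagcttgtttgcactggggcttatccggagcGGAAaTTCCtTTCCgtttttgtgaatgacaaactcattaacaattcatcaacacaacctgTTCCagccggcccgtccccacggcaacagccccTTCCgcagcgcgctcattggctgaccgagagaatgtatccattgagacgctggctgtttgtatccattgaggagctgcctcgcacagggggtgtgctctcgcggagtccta
Spry2: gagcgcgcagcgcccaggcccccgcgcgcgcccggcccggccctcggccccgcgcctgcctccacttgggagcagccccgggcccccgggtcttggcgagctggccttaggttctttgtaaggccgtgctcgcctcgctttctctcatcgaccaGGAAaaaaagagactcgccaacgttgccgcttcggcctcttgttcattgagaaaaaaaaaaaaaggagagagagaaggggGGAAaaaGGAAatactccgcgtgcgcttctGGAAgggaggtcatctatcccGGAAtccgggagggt
Etv5: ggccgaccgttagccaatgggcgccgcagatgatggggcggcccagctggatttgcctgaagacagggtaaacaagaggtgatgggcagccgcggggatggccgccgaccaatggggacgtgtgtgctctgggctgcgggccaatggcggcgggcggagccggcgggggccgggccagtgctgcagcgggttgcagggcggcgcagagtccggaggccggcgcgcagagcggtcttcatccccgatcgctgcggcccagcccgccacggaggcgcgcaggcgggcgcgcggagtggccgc
The Dusp6 window holds 6 matches of GGAA, the Spry2 window 5 and this Etv5 window 0. A second RefSeq start of Etv5, with a window at chr16:22438319-22438618, has 6. Windows were read for 6 of the 9 genes, 8 windows in all. Fgfr1 and Etv4 had no entry, and Spry4 was left out of the search. Of the 8 windows, 5 held at least 3 matches, against 66.3% of the 32851 mouse promoters of the same length. The longer ETS letters CGGAAG, searched on both strands, overlapping GGAA by construction, occurred in 1 of the 8 windows and in 16.9% of all promoters. That match is in Dusp6, on the opposite strand, from 62 to 57 bases before the start. CCGGAAGT occurred in 0 of the 8 windows and 3.89% of all promoters. These letters are a description of the windows and say nothing about binding.

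The receptors were transcripts of the progenitors. Fgfr1, the receptor found most broadly in the developing nervous system, lies on chromosome 8 from 25513654 to 25575718 (GRCm38, plus strand) and had 50 UMIs in stressed progenitors and 29 UMIs in control progenitors. This came to 124 CPM (91.8 to 163) in the stressed and 146 CPM (98.0 to 210.2) in the control library, with intervals that overlapped. The counted gene Gm16159 overlaps Fgfr1 on the other strand, and whether strand was used in counting is not given in the sources used here. In neurons Fgfr1 stood at 56.1 CPM (15 UMIs) in the stressed and 33.8 CPM (8 UMIs) in the control library. Progenitors exceeded neurons by a log2 ratio of 1.14 (0.28 to 2.08) in the stressed and 2.11 (0.95 to 3.45) in the control library. One neuron carried 6 of the 15 stressed UMIs and 1 carried 5 of the 8 control UMIs, so the neuronal level rested on few cells.

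Fgfr3, whose product is known in ventricular zone cells and later in astrocytes, lies on chromosome 5 from 33721674 to 33737068 (plus strand). It stood at 91.5 CPM (37 UMIs in 15 cells) in stressed and 121 CPM (24 UMIs in 13 cells) in control progenitors. Fgfr2, best known for its role in epithelia and also present in neural progenitors, stood at 69.2 CPM (28 UMIs in 15 cells) and 45.4 CPM (9 UMIs in 6 cells) in stressed and control progenitors. Its GENCODE M21 span on chromosome 7, from 130162451 to 133123350 (minus strand), overlaps 46 other counted genes, while RefSeq ends it at 130266808, so its counts could share reads with other genes and are less certain. In neurons both genes had 0 UMIs in the stressed library, which allows up to 11.2 CPM, and 1 UMI each in the control library. With the neuronal sum set to 3 UMIs, Fgfr3 was 8.15 times and Fgfr2 6.17 times higher in progenitors than in neurons of the stressed library. These bounds take the progenitor sums as counted and leave out their counting error. In the control library the log2 ratios over neurons were 4.84 (2.22 to 10.2) for Fgfr3 and 3.43 (0.57 to 8.88) for Fgfr2, each resting on 1 neuronal UMI.

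The order of the receptors in progenitors was Fgfr1, Fgfr3, Fgfr2 in both libraries. The intervals of Fgfr1 and Fgfr3 overlapped in both libraries, as did those of Fgfr3 and Fgfr2. Together the receptors had 284 CPM (115 UMIs, 235 to 341) in stressed and 313 CPM (62 UMIs, 239.96 to 401) in control progenitors. The sum over neurons gave log2 ratios of 2.34 (1.56 to 3.23) in the stressed and 2.89 (1.91 to 4.02) in the control library. By clusters in place of the marker gate the stressed ratio was 3.26 (2.17 to 4.60), with 7 UMIs in neurons. With cells thinned to 1000 UMIs it was 4.45 (1.78 to 9.83), from 18 UMIs in progenitors and 1 UMI in neurons. With a filter of 1000 or more genes and no more than 5% of UMIs from mitochondrial genes the control ratio was 4.11 (2.19 to 7.19), from 57 UMIs in progenitors and 2 UMIs in neurons.

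In myeloid cells the receptors summed to 7 UMIs (1.22 CPM) in the stressed and 9 UMIs (3.99 CPM) in the control library. Progenitors exceeded them by log2 ratios of 7.86 (6.77 to 9.21) in the stressed and 6.29 (5.28 to 7.49) in the control library, and the control value was 4.97 as a mean of per-cell CPM. The 12 progenitor markers also had UMIs in myeloid cells. Their myeloid level ran from 0.128% (Pax6) to 30.1% (Lfng) of their progenitor level in the stressed library, with a median of 0.332%. In the control library it ran from 0, for Hes5 and Pax6, to 9.79% (Lfng), with a median of 0.448%. For Fgfr3 this share was 0.382% in the stressed and 0.366% in the control library, and for Fgfr1 it was 0.706% and 2.12%, the second from 7 UMIs in 7 cells. All 4 values lay within the spread of the markers, but only that of Fgfr3 in the control library lay below the marker median. The upper end of the spread was set by Lfng, so this comparison cannot tell whether myeloid cells express these receptors. The source of the UMIs was not tested.

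Receptor transcripts were found in part of the progenitors. Among the 68 stressed progenitors, 25 had UMIs of 1 receptor, 12 of 2 receptors and 2 of all 3 receptors, and 29 had none. Among the 62 control progenitors, 15 had 1, 7 had 2 and 1 had all 3 receptors, and 39 had none. The 3 cells with most receptor UMIs held 32.2% of them in the stressed and 35.5% in the control library. The highest cell had 20 of 115 UMIs in the stressed library, and for Fgfr3 alone 1 cell had 11 of 37, while the highest control cell had 8 of 62. Cells with a receptor UMI were the deeper ones, with medians of 5343 UMIs against 3238 UMIs for cells without one in the stressed library, and 4631 against 1563 UMIs in the control library. The share of progenitors with a receptor UMI was 57.4% in the stressed and 37.1% in the control library without thinning. With each cell thinned to 1000 UMIs, which left out 2 stressed and 6 control cells, the shares were 27.3% (17.0 to 39.6%) and 21.4% (11.6 to 34.4%), with overlapping intervals. The thinned share in myeloid cells was 0.162% in the stressed and 0.504% in the control library.

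Profiles across the 6 sums of class and library were compared by Pearson r of log2(CPM + 10). The 2666 candidates were genes with at least 50 CPM in progenitors of both libraries. The genes most like Fgfr1 were Gpm6b (r = 0.999), Cbx5 (r = 0.998) and Sema6a (r = 0.998). For Fgfr3 they were Fermt2 (r = 0.998), Msmo1 (r = 0.997) and Dag1 (r = 0.997), and for Fgfr2 they were Mlc1 (r = 0.997), Tmed1 (r = 0.992) and Fermt2 (r = 0.991). The 6 points share 2 libraries and 3 classes of unequal depth, and Gpm6b is one of the gating markers.

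Spry2, a feedback inhibitor of receptor kinase signalling, was the most abundant of the 9 genes in progenitors. It lies on chromosome 14 from 105891947 to 105896819 (minus strand). It had 120 UMIs in 41 of 68 stressed progenitors and 185 UMIs in 37 of 62 control progenitors. The levels were 297 CPM (246 to 355) in the stressed and 934 CPM (804 to 1079) in the control library, and these intervals did not overlap. In neurons Spry2 stood at 67.3 CPM (18 UMIs in 11 cells) in the stressed and 101 CPM (24 UMIs in 18 cells) in the control library. Progenitors exceeded neurons by a log2 ratio of 2.14 (1.42 to 2.94) in the stressed and 3.20 (2.58 to 3.88) in the control library.

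In myeloid cells Spry2 had 4 UMIs (0.698 CPM) in the stressed and 12 UMIs (5.32 CPM) in the control library. These levels were 0.235% and 0.570% of the progenitor levels, within the spread of the 12 progenitor markers. Their ratio between the libraries was a log2 value of −2.93 (−5.02 to −1.21), from 4 stressed and 12 control UMIs. Of the 12 control UMIs, 7 were in the cluster led by Pf4 and Lyve1, as was 1 of the 4 stressed UMIs. That cluster held 78 control cells and 26 stressed cells, so the ratio may reflect unequal cell numbers and was not resolved by cluster. Whether these UMIs come from the myeloid cells was not tested.

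Spry2 and the receptors often shared a progenitor. Of the stressed progenitors, 30 had UMIs of both Spry2 and a receptor, 11 of Spry2 only, 9 of a receptor only and 18 of neither. Of the control progenitors, 17 had both, 20 Spry2 only, 6 a receptor only and 19 neither. Both detections move with depth, whose part in this overlap was not tested.

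Spry1 and Spry4 encode relatives of Spry2 with the same inhibitory role. Spry1 (chromosome 3, 37639947 to 37644598, plus strand) had 27.2 CPM (11 UMIs) in stressed and 35.3 CPM (7 UMIs) in control progenitors, with overlapping intervals of 13.6 to 48.7 CPM and 14.2 to 72.8 CPM. In neurons it had 1 and 2 UMIs in the stressed and the control library. In myeloid cells it had 6.11 CPM (35 UMIs in 33 cells) in the stressed and 2.22 CPM (5 UMIs in 5 cells) in the control library. The stressed myeloid level was 22.5% of that in progenitors and the control level 6.27%. Among the 12 progenitor markers Lfng reached 30.1% in the stressed library, and Ednrb 6.79% and Lfng 9.79% in the control library. Of the 35 stressed UMIs, 19 were in the cluster led by Spp1 and Ccl4 and 13 in that led by Slc2a5 and Tmem119. Spry4 (chromosome 18, 38586247 to 38601415, minus strand) had 4 UMIs in stressed and 2 UMIs in control progenitors and 0 UMIs in neurons and myeloid cells of both libraries. The 0 in myeloid cells allows up to 0.524 CPM in the stressed and 1.33 CPM in the control library.

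Dusp6 was a gene of the myeloid cells in these libraries. It encodes a phosphatase that removes phosphate from ERK in the cytoplasm and lies on chromosome 10 from 99263231 to 99267489 (plus strand). It had 786 UMIs in 522 of 1241 stressed and 389 UMIs in 284 of 845 control myeloid cells. The levels were 137 CPM (128 to 147) in the stressed and 172 CPM (156 to 190.4) in the control library. Progenitors had 7 UMIs (17.3 CPM) in the stressed and 6 UMIs (30.3 CPM) in the control library, and neurons 1 and 2 UMIs. Progenitors were lower than myeloid cells by log2 ratios of −2.99 (−4.31 to −1.94) in the stressed and −2.51 (−3.96 to −1.37) in the control library. The progenitor level of Dusp6 was 12.6% of its myeloid level in the stressed and 17.6% in the control library. For the 16 myeloid markers this share ran from 0 to 8.37% (Pf4) with a median of 1.44% in the stressed library, and from 0 to 4.21% (Fcgr3) with a median of 0.595% in the control library.

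Dusp6 was found in each of the 6 clusters whose cells were mostly myeloid. In the cluster led by Slc2a5 and Tmem119 it had 143 CPM (127 to 160) in the stressed and 174 CPM (144 to 208) in the control library. In that led by Spp1 and Ccl4 it had 136 CPM in the stressed and 172 CPM in the control library. In cells led by Pf4 and Lyve1, genes known from macrophages at brain borders, it had 156 CPM (104 to 224) in the stressed and 210 CPM (161 to 269) in the control library. The proliferating cluster led by Mki67 had 132 CPM in both libraries. The smallest cluster, led by S100a9 and S100a8, had 72.2 CPM (7 UMIs, 29.0 to 149) in 23 stressed cells and 185 CPM (14 UMIs, 101 to 310.3) in 32 control cells, and these intervals overlapped. A cluster led by haemoglobin genes, Rgs5 and Cldn5, in which 46 of 66 cells were gated as myeloid, had 72.8 CPM (12 UMIs, 37.6 to 127) in the stressed and 151 CPM (11 UMIs, 75.3 to 269.9) in the control library. The cluster led by Fabp7 had 16.2 CPM in the stressed and 24.0 CPM in the control library.

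**Figure D2:**
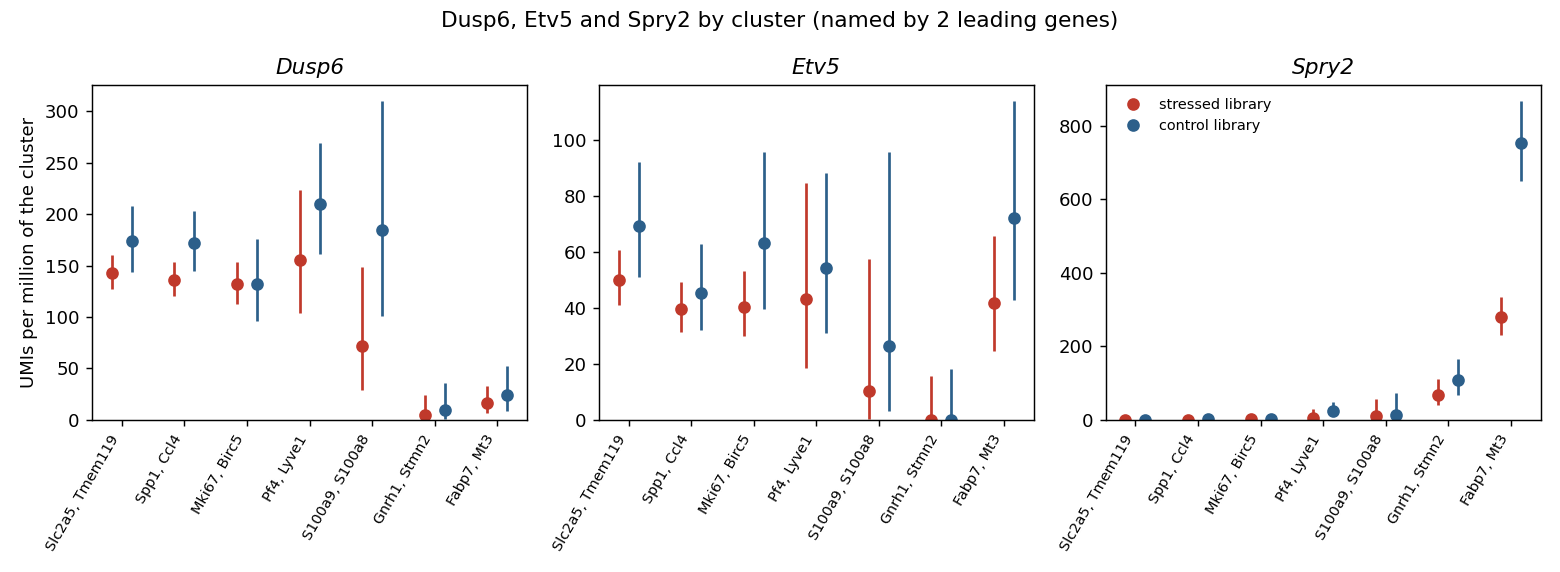
CPM of Dusp6, Etv5 and Spry2 in clusters named by 2 leading genes, in the stressed (red) and control (blue) library, with 95% Poisson intervals. The cluster led by haemoglobin genes is not drawn. The 5 clusters on the left of each panel are myeloid; Dusp6 stands between 72.2 and 210 CPM in them, while Spry2 is highest in the cluster led by Fabp7 and Mt3 (279.5 CPM stressed, 752 CPM control).

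Etv5 was the member shared by progenitors and myeloid cells. It encodes an ETS factor of the Pea3 group and lies on chromosome 16 from 22381309 to 22439719 (minus strand). Progenitors had 18 UMIs in each library, which is 44.5 CPM (26.4 to 70.4) in the stressed and 90.9 CPM (53.9 to 144) in the control library. Myeloid cells had 42.8 CPM (245 UMIs in 219 cells) in the stressed and 55.4 CPM (125 UMIs in 110 cells) in the control library. Neurons had 0 UMIs in both, which allows up to 11.2 CPM in the stressed and 12.7 CPM in the control library. Progenitors over myeloid cells gave log2 ratios of 0.06 (−0.72 to 0.75) in the stressed and 0.71 (−0.09 to 1.43) in the control library. With TMM factors these ratios were −0.59 and 0.03, so the direction was not fixed in the stressed library. Within the myeloid class Etv5 had 49.999 CPM in stressed and 69.2 CPM in control cells of the cluster led by Slc2a5 and Tmem119, and 39.6 CPM and 45.4 CPM in that led by Spp1 and Ccl4. In the cluster led by S100a9 and S100a8 it had 1 UMI in stressed and 2 UMIs in control cells.

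No link between Dusp6 and Etv5 within single myeloid cells was detectable at this depth. With cells thinned to 1000 UMIs, Dusp6 was found in 10.4% (3.47 to 22.7%) of the 48 stressed myeloid cells with an Etv5 UMI and in 14.3% (12.3 to 16.4%) of the other 1190. In the control library it was found in 8 of the 40 cells with Etv5 (9.05 to 35.6%) and in 16.2% (13.6 to 19.0%) of the other 753. The intervals overlapped in both libraries, and no difference was detectable. Etv4, the close relative of Etv5 (chromosome 11, 101769742 to 101785371, minus strand), had 22.3 CPM (9 UMIs in 9 cells) in stressed and 25.2 CPM (5 UMIs in 4 cells) in control progenitors. In myeloid cells it had 3.14 CPM (18 UMIs) in the stressed and 3.10 CPM (7 UMIs) in the control library, and in neurons 0 UMIs in both.

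The comparison of the stressed with the control library asked whether maternal cold exposure moved with the levels of these genes. In progenitors Spry2 had the largest difference, the receptors together were within their counting error of equal, and the other members had too few UMIs for their ratios to be narrow. Among genes with at least 50 CPM in one library, 3 of 5 members (Spry2, Etv5 and Fgfr2) were past 1.5 times, against 29.8% of all 3782 genes. Fgfr2 reached 50 CPM only in the stressed library and Etv5 only in the control library, so these 2 calls partly follow from the filter. Of these, 2 were lower in the stressed library, as were 21.4% of all genes, and 1 was higher, as were 8.33%. The median log2 ratio over all genes was −0.18, and the central 80% lay between −0.89 and 0.51. TMM factors moved that median to 0.02, and gave 527 genes higher and 496 lower past 1.5 times, against 315 higher and 811 lower by CPM.

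**Figure D3:**
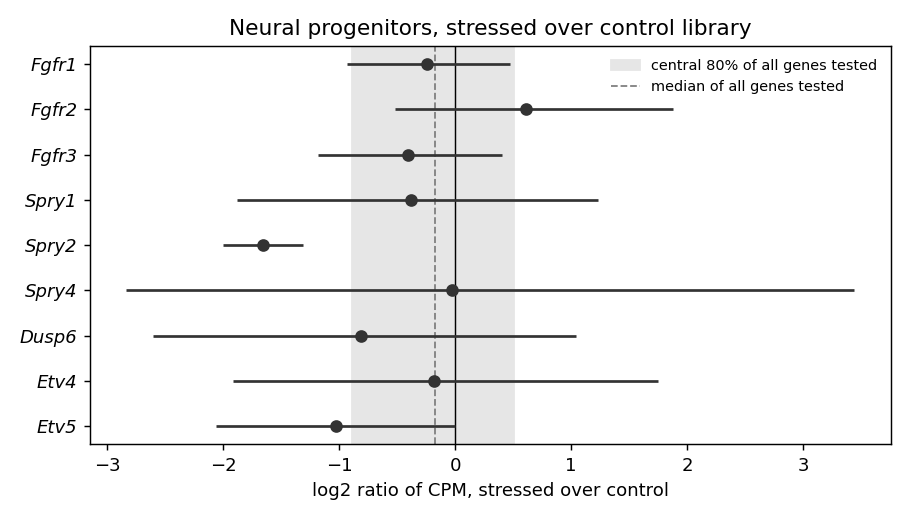
Log2 ratio of CPM, stressed over control library, in neural progenitors for the 9 genes, with 95% counting intervals; the grey band holds the central 80% of all genes tested and the dashed line is their median. Spry2 at −1.65 lies outside the band with its whole interval, and Etv5 at −1.03 has an interval that ends next to 0.

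Spry2 was 3.15 times lower in stressed than in control progenitors, a log2 ratio of −1.65 (−2.00 to −1.31), or −1.48 relative to the median of all genes. As a mean of per-cell CPM the log2 ratio was −1.27. With each cell thinned to 1000 UMIs it was −1.01 (−1.75 to −0.29), from 27 UMIs in stressed and 46 UMIs in control cells. The share of thinned progenitors with a Spry2 UMI was 27.3% (17.0 to 39.6%) in the stressed and 42.9% (29.7 to 56.8%) in the control library, and these intervals overlapped. At 1500 UMIs the shares were 31.7% (20.6 to 44.7%) of 63 stressed and 58.1% (42.1 to 73.0%) of 43 control cells. Without thinning they were 60.3% and 59.7%.

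The gap in Spry2 was present in deep and in shallow cells. In progenitors with at least 5000 UMIs, a split chosen after the values were seen, Spry2 stood at 276 CPM (217 to 345) in 24 stressed cells and 953 CPM (762 to 1177) in 11 control cells. In those with fewer UMIs it stood at 342 CPM (248 to 459) in 44 stressed and 918 CPM (746 to 1118) in 51 control cells. The highest single cell had 13 Spry2 UMIs in the stressed and 28 in the control library. Cells with 5 or more Spry2 UMIs numbered 7 in the stressed library, with 60 of its 120 UMIs, and 14 in the control library, with 136 of its 185 UMIs. Without the 5% of cells with most Spry2 UMIs in each library, which is an added alternative picked once the values were known, the log2 ratio was −1.67.

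**Figure D4:**
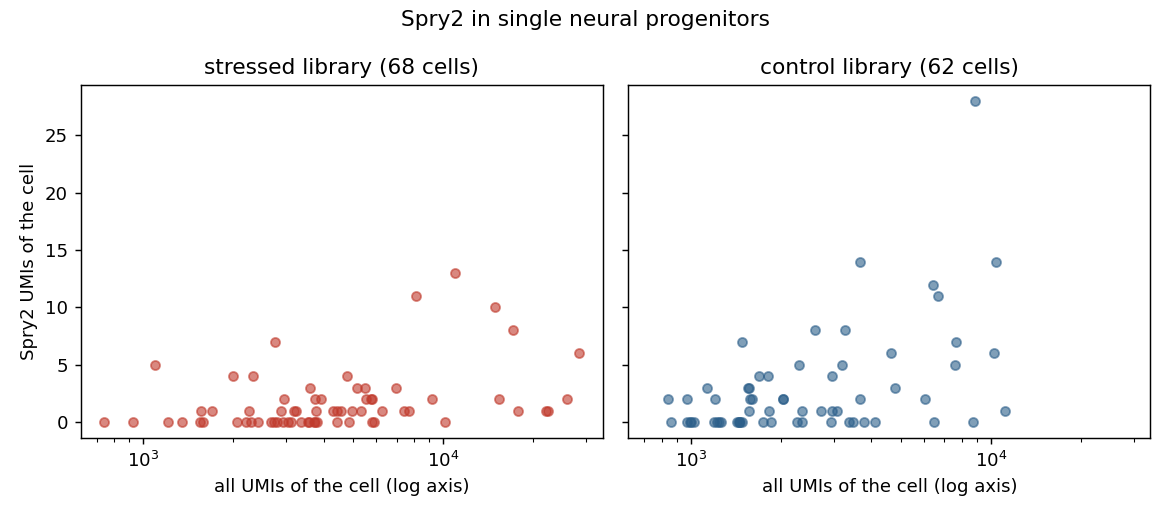
Each point is 1 neural progenitor, placed by all its UMIs (log axis) and its Spry2 UMIs, for 68 stressed cells (left) and 62 control cells (right). Cells with 5 or more Spry2 UMIs number 7 on the left and 14 on the right, and the highest have 13 and 28.

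Other measures of the progenitors also differed between the libraries. Haemoglobin genes summed to 11780 UMIs (29134 CPM) in stressed and 19 UMIs (95.9 CPM) in control progenitors. The 2 stressed progenitors with over 10% haemoglobin UMIs held 17519 UMIs of all genes, so the summed level may rest mainly on them. Without those 2 cells, a choice made after seeing the data, the Spry2 log2 ratio was −1.60. Markers of vascular and mesenchymal cells summed to 252 CPM in stressed progenitors, with 4 of 12 markers at 0, and to 40.4 CPM in control progenitors, with 10 of 12 at 0. The pericyte gene Rgs5 had 28 UMIs in stressed and 0 UMIs in control progenitors, Kdr of endothelium 17 and 0, Pdgfrb 16 and 7, Col1a1 15 and 0, and Col3a1 11 and 0. Cldn5 had 2 UMIs in stressed and 0 UMIs in control progenitors, and Cdh5 and Flt1 had 0 in both. Among the gated progenitors of both libraries, 2 fell in the cluster led by haemoglobin genes, Rgs5 and Cldn5. Myeloid markers summed to 378 CPM in stressed and 177 CPM in control progenitors, against 24955 CPM and 24487 CPM in the myeloid cells themselves. Cells with Xist and no Y-linked UMI numbered 1281 of the 1407 stressed and 362 of the 1068 control cells kept. The whole libraries thus differed in this share. Progenitors of this kind made up 56 of 68 stressed and 27 of 62 control cells, and within them the Spry2 log2 ratio was −1.97 (−2.37 to −1.57). A strict gate, which takes cells with at least 5 markers whose UMIs are at least 3 times those of each other list (2 times between progenitors and neurons), gave −1.44 (−1.79 to −1.09). The part of depth and of the vascular and myeloid markers in the Spry2 value was not tested.

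The receptor sum had a log2 ratio of −0.14 (−0.60 to 0.33) in progenitors, or 0.04 relative to the median of all genes. Across the alternatives this value lay between −0.27 and 0.25, so its direction was not fixed. Fgfr1 stood at −0.24 (−0.93 to 0.47), Fgfr3 at −0.40 (−1.18 to 0.40) and Fgfr2 at 0.61 (−0.52 to 1.88), all with intervals that hold 0. Etv5 had −1.03, with an interval from −2.06 to just below 0. With a stricter cell filter it had −0.77 (−1.90 to 0.39), and without the 2 cells rich in haemoglobin −0.97 (−1.99 to 0.06), so its counting interval did not stay off 0. Dusp6 had −0.81 (−2.60 to 1.04), Spry1 −0.38 (−1.88 to 1.23), Etv4 −0.18 (−1.91 to 1.74) and Spry4 −0.03 (−2.83 to 3.44), none of them resolved at this depth.

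In neurons 2 of 2 members at 50 CPM were past 1.5 times, where 28.6% of all genes were. Fgfr1 had a log2 ratio of 0.73 (−0.60 to 2.18) and Spry2 of −0.59 (−1.56 to 0.35), so neither was resolved. Fgfr1 reached 50 CPM only in stressed neurons, so its call partly follows from the filter. In myeloid cells 0 of 2 members were past 1.5 times, where 4.88% of all genes were. Dusp6 had a log2 ratio of −0.33 (−0.51 to −0.15) and Etv5 of −0.37 (−0.69 to −0.05), against a median of −0.05 over all genes and a central 80% from −0.36 to 0.26. With TMM factors these were −0.17 for Dusp6 and −0.21 for Etv5. Without the 5% of cells with most Etv5 UMIs, the Etv5 ratio was −0.14 (−0.55 to 0.30). Thinned to 1000 UMIs, Dusp6 was found in 14.1% (12.2 to 16.2%) of 1238 stressed and 16.4% (13.9 to 19.2%) of 793 control myeloid cells, with overlapping intervals. Spry1 had a myeloid log2 ratio of 1.46 (0.11 to 3.17), below the minimum level and from 35 stressed and 5 control UMIs. Myeloid cells with Xist and no Y-linked UMI made up 1144 of 1241 stressed and 273 of 845 control cells. The libraries thus differed in this share as well as in exposure.

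The other genes of the FGF pathway were read in progenitors from 5 lists, called at the same 50 CPM and 1.5 times. Of 22 FGF ligands, 11 had a UMI in progenitors and 0 reached 50 CPM. Fgf15, a ligand known from the embryonic hypothalamus, stood at 19.8 CPM in stressed and 35.3 CPM in control progenitors. Fgf13, an intracellular relative of the ligands, stood at 97.3 CPM in stressed and 71.9 CPM in control neurons, above its 27.2 CPM and 25.2 CPM in progenitors. Fgf8 had 6 UMIs in stressed and 1 UMI in control progenitors, and Fgf12 had 3 and 2.

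Of 16 other receptors and co-receptors, 5 reached 50 CPM, with 1 higher, 1 lower and a median log2 ratio of −0.26. The adhesion molecules Ncam1 and Cdh2, which can associate with FGF receptors, had 262 CPM in stressed against 313 CPM in control and 232 CPM in stressed against 313 CPM in control progenitors. The heparan sulphate carriers Gpc1 and Sdc3 had 74.2 CPM against 55.5 CPM and 54.4 CPM against 101 CPM, stressed against control. Gpc3, a glypican, had 71.7 CPM (29 UMIs) in stressed and 15.1 CPM (3 UMIs) in control progenitors, a log2 ratio of 2.24 (0.55 to 4.60).

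Of 23 adaptors and kinases of the cascade, 10 reached 50 CPM, with 2 higher, 2 lower and a median of −0.12. Crkl, an adaptor, had 44.5 CPM (18 UMIs) in stressed and 106 CPM (21 UMIs) in control progenitors, a log2 ratio of −1.25 (−2.25 to −0.27). Hras, Map2k2, Cbl and Nras lay between −0.53 and 0.01, with intervals that hold 0.

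Of 19 other feedback inhibitors, 4 reached 50 CPM, with 1 higher, 0 lower and a median of 0.51. The 1 higher was Flrt3 at 1.23 (−0.19 to 2.98), whose product is known to promote FGF signalling and not to inhibit it. Spred1, which encodes a relative of the Sprouty proteins, had 109 CPM (44 UMIs) in stressed and 75.7 CPM (15 UMIs) in control progenitors, a log2 ratio of 0.52 (−0.35 to 1.48). Rasa1 and Nf1, whose products switch Ras off, had 0.50 and 0.36. In myeloid cells Spred1 had 56.4 CPM in the stressed and 75.3 CPM in the control library. Of 15 other targets, 3 reached 50 CPM, with 0 higher, 2 lower and a median of −0.87. Ccnd1, which encodes cyclin D1, had 96.5 CPM (39 UMIs) in stressed and 177 CPM (35 UMIs) in control progenitors, a log2 ratio of −0.87 (−1.57 to −0.17). Etv1, the other gene of the Pea3 group, had 96.5 CPM in stressed and 121 CPM in control progenitors, with −0.33 (−1.10 to 0.47). Elk3, an ETS gene, and Mycn had −0.90 and −0.74, each with an interval that holds 0. Against the 8.33% higher and 21.4% lower over all genes, lists of this size say little.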

How the data were processed

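Droplet single-cell RNA-seq was measured in 2 libraries, 1 stressed and 1 control. The authors deposited whole-number UMI counts, not normalized, in 10x matrix form. Per the submitters' processing notes, the software was Cell Ranger 3.0.0, STAR and Seurat 2.4 and the assembly GRCm38.p5 (mm10), with no role stated. The files held 1467 stressed and 1156 control barcodes, with 6582188 and 2833015 UMIs, so the stressed sums are more precise.

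Barcodes passed with 500 or more genes and no more than 10% of UMIs from mitochondrial genes. A cell was neural or myeloid when it had at least 3 markers of that class and their UMIs outnumbered those of the other classes, and a neural cell was a progenitor when progenitor UMIs outnumbered neuron UMIs. Doublets were kept in the main values, because Scrublet marked only 3 stressed and 2 control cells. UMIs were summed per class and library and divided by the class total. Poisson, Clopper-Pearson and conditional ratio intervals cover counting error only, since molecules of 1 pool are not replicates. A sum of 0 was set to 3 UMIs for a bound, with the other sum taken as counted. Clusters came from Leiden clustering in scanpy 1.11.5 at resolution 0.5. edgeR 4.0.16 TMM and DESeq2 1.42.0 size factors were alternative scalings. The ratio step was tested on simulated counts. Gene spans come from GENCODE M21, and promoter sequence from RefSeq (GRCm38.p6).

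The 9 genes, the marker lists and the pathway lists were chosen with earlier results of these data known. Named pathway genes were the up to 4 highest of each list in progenitors and any past 1.5 times with an interval off 0. A few genes that this rule takes are not reported here. The count at 50 CPM includes a sum of 0 at its bound.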

Additional observations from a re-analysis of the deposited data

How the results depend on the processing

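Of 409 recomputed values under the alternatives, 373 stayed within the counting interval of the reported value, or within 1.5 times for counts of genes. The other 36 moved further. Among ratios past 1.5 times with an interval off 0, 0 changed sign. Of 16 alternatives for shares of cells, which change the depth, 14 moved. The stressed over control log2 ratio of Spry2 in progenitors was −1.27 as a mean of per-cell CPM and −1.01 with thinned cells, and between −1.43 and −1.97 under the others. For the receptor sum, progenitors over neurons gave 3.26 with clusters and 4.45 with thinned cells in the stressed library, and 4.11 with the stricter cell filter in the control library. Progenitors over myeloid cells gave 4.97 in the control library as a mean of per-cell CPM, and the control progenitor level of the receptor sum was then 212 CPM, against 313 CPM. Genes past 1.5 times in progenitors numbered 1126, against 3013 at 20 CPM, 373 at 100 CPM, 6930 without a minimum and 460 past 2 times. In neurons they numbered 961, against 2771, 336, 6781 and 330. No paired analysis was possible because each group has 1 library. Depth limits Spry1, Spry4, Dusp6, Etv4 and Etv5 in progenitors, where sums of 2 to 18 UMIs leave wide intervals.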

Other observations

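A few progenitor genes outside the lists, chosen after their values were seen, are given as values. Fgfbp3, which encodes an FGF-binding protein, had 284 CPM (115 UMIs) in stressed and 692 CPM (137 UMIs) in control progenitors, a log2 ratio of −1.28 (−1.65 to −0.91). Tnc, an extracellular matrix gene of the ventricular zone, had 208 CPM in stressed and 439 CPM in control progenitors (−1.08, −1.53 to −0.63). Sox2, a progenitor transcription factor, had 359 CPM in stressed and 565 CPM in control progenitors (−0.66, −1.02 to −0.29), whereas Fabp7 had 13125 CPM and 11096 CPM (0.24, 0.17 to 0.31). Ncan was also lower, with 287 CPM in stressed and 464 CPM in control progenitors (−0.69, −1.10 to −0.28). Higher in stressed progenitors were Pax6, another gating marker, with 136 CPM against 70.7 CPM (0.94, 0.08 to 1.91), and Ptn. Ptn had 3960 CPM in stressed and 2968 CPM in control progenitors (0.42, 0.28 to 0.55). Nkx2-1, a marker of the ventral hypothalamus, had 166 CPM in stressed and 167 CPM in control progenitors, and Six3 had 109 CPM and 106 CPM. Mki67, a proliferation marker, had 61.8 CPM in stressed and 60.6 CPM in control progenitors, while Top2a had 129 CPM and 232 CPM (−0.85, −1.45 to −0.25).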
